A study of Mus musculus with 12 samples.

Results

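Metallothioneins and iron handling genes were examined in mouse kidney after renal ischemia-reperfusion (IR) injury. The 10 genes, Mt1, Mt2, Fth1, Ftl1, Tfrc, Slc40a1, Slc11a2, Hamp, Trf and Cp, were taken by symbol from the 24421 genes of the deposited count and FPKM matrices (fragments per kilobase of transcript, scaled to the mapped reads of the library), with the highest-total transcript standing for each gene. RNA-seq was performed on 12 kidney libraries from C57BL/6 mice, male per the study's methods and 6 weeks old, in 4 groups of 3. WT baseline and Tet2-/- baseline kidneys came from unoperated mice of either genotype, and WT IR and Tet2-/- IR kidneys came from injured mice. IR injury was made by clamping the right renal pedicle for 60 min with removal of the left kidney, and tissue was taken 24 h later, so that a difference between IR and baseline also holds surgery and the loss of the left kidney; no sham-operated library was analysed here. Tet2 is an enzyme that oxidises 5-methylcytosine in DNA, and the mice labelled Tet2-/- were knockout mice bred from Tet2+/- parents, per the study's methods, with no cell type named for the deletion. The labels do not say that each library came from a separate mouse, so the p-values measure the spread between these libraries.

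Metallothioneins are small cysteine-rich proteins that bind zinc and copper. Their genes are switched on by the zinc-sensing factor Mtf1, which binds metal response elements in their promoters, and they are known to rise in stressed cells. Iron enters cells when Tfrc, the transferrin receptor, takes up iron carried by transferrin (Trf), and Slc11a2 then moves it out of the endosome. Fth1 and Ftl1 are the heavy and light chains of ferritin, which stores iron in a non-reactive form. Slc40a1 (ferroportin) exports iron, Cp (ceruloplasmin) is a copper-containing ferroxidase that helps load exported iron onto transferrin, and Hamp (hepcidin) is the liver hormone that removes ferroportin from the cell surface. When iron is scarce, iron regulatory proteins bind stem-loops called iron responsive elements: in a 5′ UTR this blocks translation, and in the 3′ UTR of Tfrc it protects the transcript.

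The total count per library, over the transcript that stood for each gene, ranged from 51007362 to 107969879. Tet2 itself was at 6.25, 7.33 and 9.15 FPKM in the WT baseline libraries and at 9.25, 10.3 and 16.6 in those labelled Tet2-/- baseline, which were therefore not lower (log2 fold change 0.76 ± 0.24 SE, edgeR adjusted p = 0.320). After IR it was at 3.86, 3.97 and 9.34 in WT and at 1.76, 2.64 and 3.20 in Tet2-/- (log2 fold change −1.28 ± 0.36, adjusted p = 0.0690). The count over the whole transcript does not show whether a deleted part is missing. All 6 proximal tubule markers were detected, with a summed level of 1966 to 1983 FPKM in WT baseline, 1676 to 2336 in Tet2-/- baseline, 1050 to 1376 in WT IR and 413 to 652 in Tet2-/- IR. Most of the sum at baseline was Slc34a1, and Slc22a6 was higher in each WT IR library (377 to 439.6 FPKM) than in each WT baseline library (234 to 253). The 6 neutrophil markers summed to 0.607 to 2.34, 1.85 to 2.85, 3.82 to 8.65 and 61.9 to 115 FPKM in the same order. For the 12 macrophage markers these ranges were 44.5 to 68.0, 40.4 to 81.8, 35.4 to 76.7 and 65.9 to 242 FPKM, and for the 9 red blood cell markers found in the matrix, of 11, they were 70.1 to 317, 107 to 230, 46.1 to 344 and 297 to 341 FPKM. The macrophage markers did not move together: Lyz2 was at 119.7 FPKM in Tet2-/- IR replicate 2 and at 5.36 and 13.1 in the other libraries of its group, and Csf1r fell with IR in Tet2-/- (log2 fold change −2.69, adjusted p = 0.00125). Adipocyte markers (6 genes) stood at 39.1 and 124 FPKM in WT baseline replicates 2 and 3 and at 156 in Tet2-/- IR replicate 3, against 0.135 to 8.20 in the other 9 libraries. In Tet2-/- IR replicate 3 the 2 thick ascending limb markers were also lowest, at 373 FPKM.

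The 5′ flank of the metallothionein genes is shown first because Mt1 and Mt2 differed most between the genotypes after IR. Both lie on the plus strand of chromosome 8, Mt2 at chr8:96696518-96697467 and Mt1 at chr8:96702989-96704227 (mm9), with 5522 bases from the end of Mt2 to the start of Mt1. In each, the annotated start lies upstream of a TATAAA box. The 30 bases that end in this box are given here from the NCBIM37 (mm9) reference genome, 5′ to 3′ on the plus strand, with the TATAAA and the nearest metal response element core in capitals.
Mt1, chr8:96703086-96703115: tTGCGCCCggactcgtccaacgacTATAAA
Mt2, chr8:96696629-96696658: TGCGCTCgacccaatactctccgcTATAAA
The cores searched were TGCGCNC and TGCACNC on both strands. Between 250 bases before and 200 bases after the annotated start, Mt1 held 5 of them, which lay 16, 30, 94, 112 and 137 bases before its TATAAA, and Mt2 held 7, which lay 17, 51, 70, 124, 178, 256 and 351 bases before it. None of these cores overlapped another. Among 24346 such windows, 39.97% held at least 1 core, 0.411% at least 5 and 0.0370% at least 7, and 10.14% held a TATAAA on the strand of the gene. In the shorter window that ends 50 bases past the start, Mt1 held 3 cores and Mt2 held 4, where 2.468% of 24348 windows held at least 3 and 0.6161% at least 4. Among the other 8 genes, Tfrc and Trf held 2 cores each in the longer window and the others none. A match is a description of the sequence and not evidence of binding.

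Stem-loops of the iron responsive element type were searched in the transcripts of all genes as an unpaired C, 5 bases, the loop CAGTGN and 5 bases pairing with the first 5 (G-U pairs allowed), on the transcript strand. Of 22611 genes, 279 (1.234%) had a match in a transcript of the GENCODE annotation of the same build, and among the 10 genes 4 did, with 7 elements. They are printed 5′ to 3′ on the transcript strand, with the 6-base loop in capitals, because the translation or stability of transcripts with such an element is known to be tied to iron.
Fth1, 5′ UTR, chr19:10057222-10057251, plus strand: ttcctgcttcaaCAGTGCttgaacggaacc
Ftl1, 5′ UTR, chr7:52715148-52715177, minus strand: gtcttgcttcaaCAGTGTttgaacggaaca
Slc40a1, 5′ UTR, chr1:45982309-45982338, minus strand: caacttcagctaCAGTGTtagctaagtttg
Tfrc, 3′ UTR, chr16:32631305-32631334, plus strand: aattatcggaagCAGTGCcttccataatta
Tfrc, 3′ UTR, chr16:32631684-32631713, plus strand: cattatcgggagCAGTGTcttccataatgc
Tfrc, 3′ UTR, chr16:32631749-32631778, plus strand: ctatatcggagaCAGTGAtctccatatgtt
Tfrc, 3′ UTR, chr16:32631796-32631825, plus strand: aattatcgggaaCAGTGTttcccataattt
The 3 genes with a match in the 5′ UTR encode the ferritin chains and the exporter, and the single gene with matches in the 3′ UTR encodes the receptor. The pattern was strict: a stem-loop with an unpaired base among the 5 pairs, or with another loop, was not found by it. The lack of a match, as in Slc11a2, therefore does not show that a transcript has no such element.

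To ask how genotype and injury changed these genes, 4 pairwise comparisons and the genotype by IR interaction were tested with edgeR over all genes, and a gene was called when its Benjamini-Hochberg adjusted p was under 0.05 and its log2 fold change beyond 1 in either direction (for the interaction, the adjusted p alone). Counts for 9 of the 10 genes passed the filter on low counts, all but Hamp. At baseline no member was called between Tet2-/- and WT, where 0.0124% of all genes tested were called higher and 0% lower; 1 of 9 members, against 1891 of 16086 genes in all, had an unadjusted p under 0.05. After TMM scaling of the counts, Trf alone of the 9 had each Tet2-/- library below each WT library, and no member the opposite, against 10.8% and 7.93% of all genes. After IR, 2 of 9, Mt1 and Mt2, were called higher in Tet2-/- than in WT and none lower, where 2.3% of all genes were called higher and 3.85% lower. With the adjusted p alone, Slc11a2 and Cp were lower, so that 2 of 9 were higher and 2 lower against 3.51% and 6.17% of all genes. The same 4 genes were those whose groups did not overlap, against 17.5% of all genes with Tet2-/- above and 18.5% with Tet2-/- below.

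For IR against baseline in WT no member was called, where 1.46% of all genes were called higher and 0.887% lower (1.88% and 1.14% by the adjusted p alone), although 5 of 9 members had an unadjusted p under 0.05 (3640 of 16015 genes in all). These 5 genes (Mt1, Mt2, Ftl1, Tfrc and Cp) had each WT IR library above each WT baseline library, against 14.8% of all genes that did so and 14.5% that did the opposite. Other fits of the same comparison gave other counts: DESeq2 called all 5 (488 of 16015 genes in all called higher and 490 lower), a fit with the replicate number as a block called Ftl1 (log2 fold change 1.27, adjusted p = 0.0140), Tfrc (1.10, 0.0218) and Cp (1.51, 0.0287), with 428 genes in all higher and 559 lower, and a fit over all 12 libraries called Mt2, Ftl1 and Tfrc, with 373 of 16741 genes higher and 258 lower. In Tet2-/-, IR raised 5 of 9 members (Mt1, Mt2, Ftl1, Tfrc and Trf) and lowered none, where 12.7% of all genes were called higher and 11.6% lower. With the adjusted p alone 7 of 9 were higher, Slc40a1 and Cp in addition, against 22.9% of all genes higher and 20.3% lower. In 8 of 9 each IR library was above each baseline library, against 29.5% of all genes (27.2% below). Scaling by library size alone called 8 of 9 higher, and it moved the median log2 fold change of all genes to 0.27 and their calls from 2078 higher and 1896 lower to 2860 and 1397. The median log2 fold change of the 9 genes was 1.05 in WT and 1.02 in Tet2-/-, beside −0.03 and 0.04 over all genes tested. The interaction was called for 2 of 9, Mt1 and Mt2, both with the larger rise in Tet2-/-, where 3.78% of all genes were called in that direction and 5.38% in the other (633 and 901 genes, or 1129 and 700 with library sizes alone). The comparisons share libraries and are not independent of each other.

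**Figure D1:**
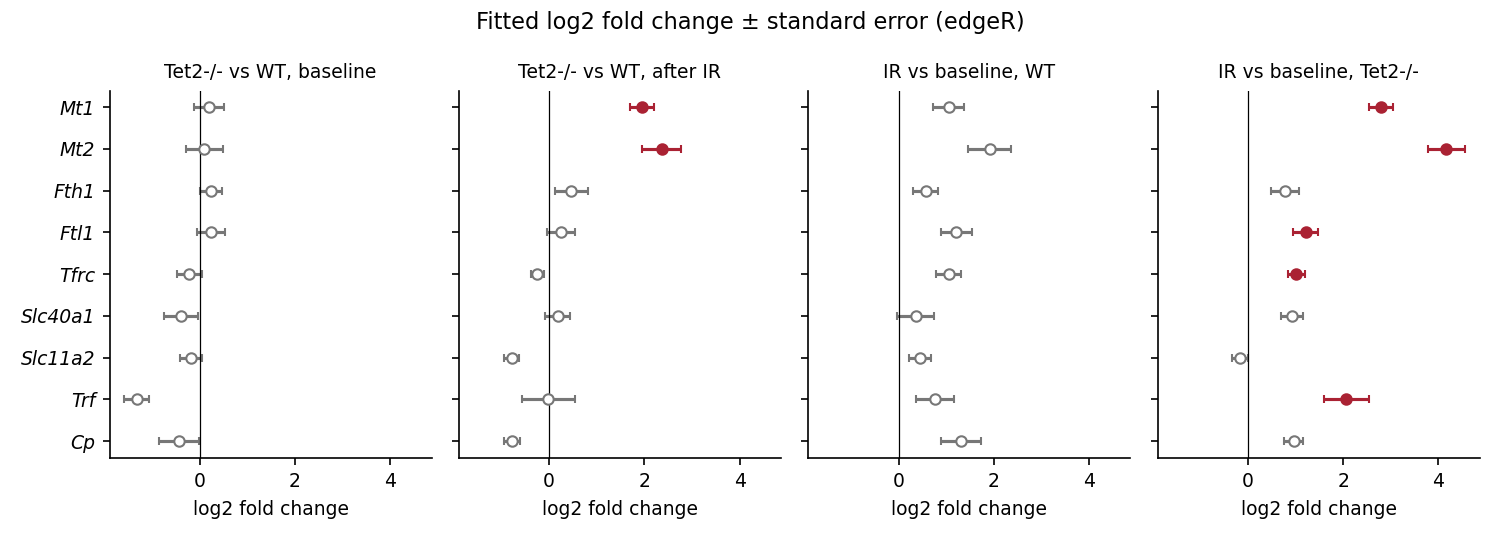
Fitted log2 fold change (horizontal axis) of the 9 tested genes in the 4 pairwise comparisons, with whiskers of 1 standard error and filled red points where a gene was called. Mt1 and Mt2 are the filled points in Tet2-/- against WT after IR, at 1.95 and 2.36, and lie farthest to the right in IR against baseline in Tet2-/-, at 2.80 and 4.17.

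Mt1 and Mt2 had overlapping levels in the genotypes at baseline, rose with IR in Tet2-/-, and were higher in Tet2-/- than in WT after IR. In WT their IR libraries were also above their baseline libraries, but neither passed the test. In bulk tissue, fewer cells of a type and less RNA per cell cannot be told apart, and this holds for each result below. Mt1 was at 189.6, 154 and 89.0 FPKM in WT baseline replicates 1 to 3, at 218, 122 and 127 in Tet2-/- baseline, at 233, 444 and 263 in WT IR and at 1192, 1497 and 1183 in Tet2-/- IR. All Tet2-/- IR libraries were above all WT IR libraries, and these above all baseline libraries, while the baseline groups overlapped. By mean level Mt1 went from the 408th most abundant gene in WT baseline to the 143rd in WT IR and the 10th in Tet2-/- IR. The rise with IR in Tet2-/- was 6.94-fold (log2 fold change 2.80 ± 0.26 SE, adjusted p = 0.000285), and the log2 fold change in WT was 1.05 ± 0.33 (adjusted p = 0.127). After IR the level in Tet2-/- was 3.87 times that in WT (1.95 ± 0.25, adjusted p = 0.0123), and at baseline the log2 difference was 0.20 ± 0.31 (adjusted p = 0.794).

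Mt2 showed the same order with a wider range. It was at 64.7, 39.0 and 29.9 FPKM in WT baseline, at 72.1, 32.3 and 30.4 in Tet2-/- baseline, at 88.5, 283 and 155 in WT IR and at 1064, 1169 and 670.3 in Tet2-/- IR. Again no Tet2-/- IR library overlapped WT IR and no WT IR library overlapped baseline, with WT IR replicate 2 the highest of its group for both genes. Mt2 rose 17.9-fold with IR in Tet2-/- (log2 fold change 4.17 ± 0.39, adjusted p = 0.000313), and its log2 fold change in WT was 1.91 ± 0.46 (adjusted p = 0.0752). Between the genotypes it differed 5.14-fold after IR (2.36 ± 0.42, adjusted p = 0.0214) and by a log2 of 0.10 ± 0.39 at baseline (adjusted p = 0.926). Mean FPKM was 44.6 ± 18.1 (SD, n = 3), 45.0 ± 23.5, 176 ± 98.7 and 968 ± 263 in the 4 groups, and for Mt1 it was 144 ± 51.0, 155 ± 54.0, 313 ± 114 and 1290.5 ± 179.

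**Figure D2:**
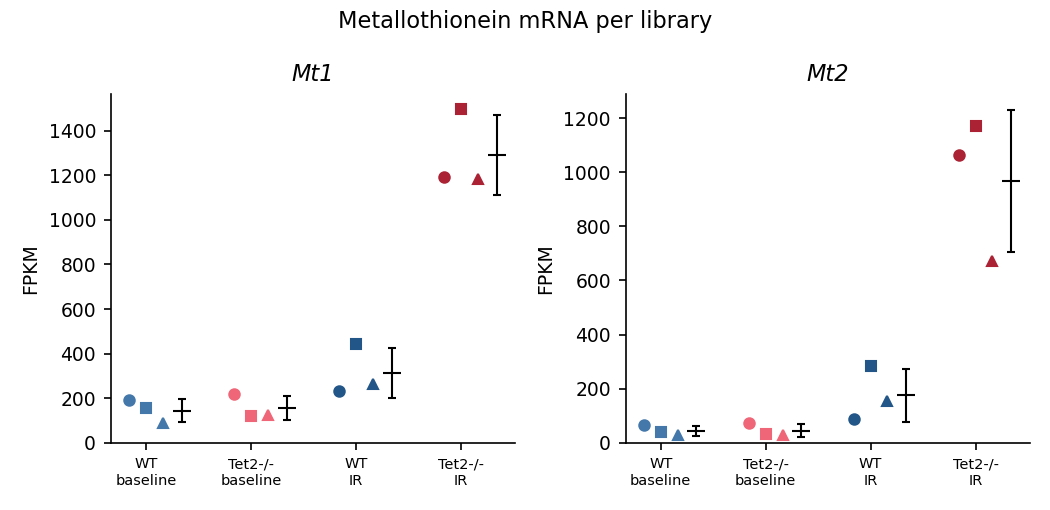
FPKM (vertical axis) of Mt1 and Mt2 in each of the 12 libraries by group, with replicate 1 as a circle, 2 as a square and 3 as a triangle, and a black dash with a bar for the mean ± SD of 3 libraries. The Tet2-/- IR libraries lie between 1183 and 1497 for Mt1 and between 670.3 and 1169 for Mt2, above all other libraries.

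The test of the difference between the IR effects gave a log2 ratio of 1.78 ± 0.44 for Mt1 (3.43-fold, adjusted p = 0.0311) and of 2.29 ± 0.63 for Mt2 (4.89-fold, adjusted p = 0.0453) in the genotype by IR interaction. These calls were close to the threshold. For Mt1 the adjusted p stayed under 0.05 when WT baseline replicate 3, Tet2-/- baseline replicate 1, WT IR replicate 2 or Tet2-/- IR replicate 3 was left out, and was 0.0532 to 0.0867 without any other library. For Mt2 it stayed under 0.05 without Tet2-/- baseline replicate 1, WT IR replicate 2 or Tet2-/- IR replicate 3, and was 0.0511 to 0.112 without any other. Without WT baseline replicates 2 and 3, which carried adipocyte markers, the log2 ratio was 2.14 for Mt1 (adjusted p = 0.0736) and 2.80 for Mt2 (adjusted p = 0.105). That fit has a single WT baseline library, assumed to vary like the other groups, and called only 10 of 17237 genes.

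The difference between genotypes after IR was called for Mt1 with each of the 6 libraries left out. For Mt2 the adjusted p was 0.0705 without WT IR replicate 3, 0.0647 without Tet2-/- IR replicate 1 and 0.0539 without Tet2-/- IR replicate 2. Leaving out Tet2-/- IR replicate 3, the library with high adipocyte markers, gave 1.95 for Mt1 (adjusted p = 0.0356) and 2.53 for Mt2 (adjusted p = 0.0430). In the same comparison 4 of 5 tested neutrophil markers and 2 of 11 macrophage markers were called higher and 3 of 6 proximal tubule markers lower. S100a9 stood at 33.1 to 65.0 FPKM in Tet2-/- IR and at 1.87 to 4.99 in WT IR, while Camp was at 0 in Tet2-/- IR replicate 3. The part of these cells in the metallothionein result was not tested.

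The Mt1 to Mt2 ratio was lower in the IR libraries, in a design too small for its test to pass. The Mt1 to Mt2 ratio of FPKM within a library was 2.93, 3.95 and 2.98 in WT baseline, 3.02, 3.77 and 4.17 in Tet2-/- baseline, 2.63, 1.57 and 1.69 in WT IR and 1.12, 1.28 and 1.76 in Tet2-/- IR. Every IR library had a lower ratio than every baseline library of its genotype, and the genotypes overlapped both at baseline and after IR. The IR libraries were also below the baseline libraries in the Fth1 to Ftl1 ratio, at 4.63, 2.89 and 2.95 in WT baseline, 3.52, 2.999 and 3.25 in Tet2-/- baseline, 1.94, 2.05 and 2.27 in WT IR and 2.89, 2.14 and 2.36 in Tet2-/- IR. For both ratios and both genotypes the two-sided exact permutation p for IR was 0.1, the smallest that 3 libraries against 3 allow, and 0.2 when adjusted over the 8 ratio tests. Such a ratio does not depend on the scaling between libraries.

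**Figure D3:**
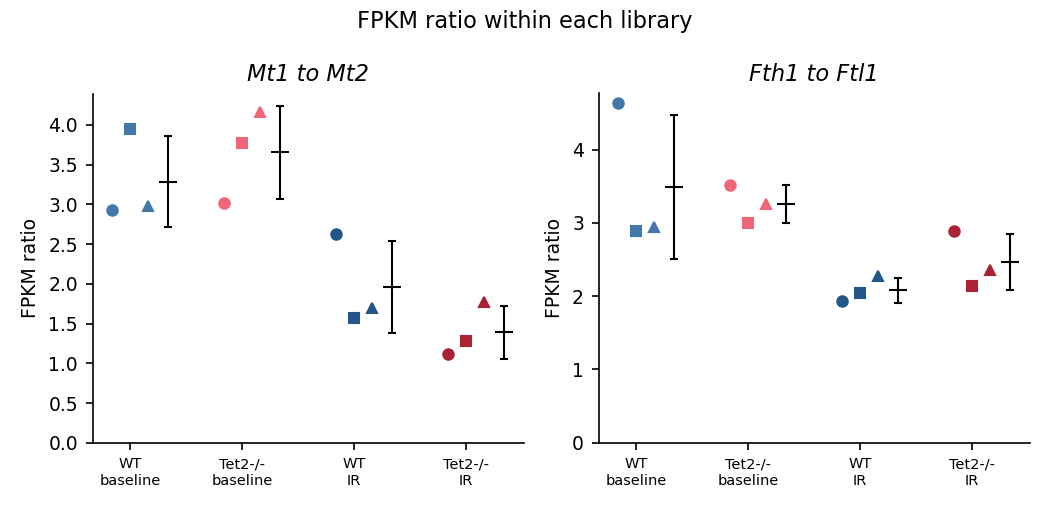
Ratio of FPKM within each library (vertical axis) for Mt1 to Mt2 and Fth1 to Ftl1 by group, with a symbol per replicate and a black dash and bar for the mean ± SD of 3 libraries. Mean Mt1 to Mt2 ratios are 3.28, 3.65, 1.96 and 1.39 from left to right, and the IR libraries lie below the baseline libraries of the same genotype in both panels.

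Ferritin transcripts were among the most abundant of the kidney in all groups. Fth1 (chr19:10057136-10059601, plus strand) ranked 3rd, 3rd, 3rd and 4th of 24421 genes by mean FPKM in WT baseline, Tet2-/- baseline, WT IR and Tet2-/- IR. Its levels were 2969, 4299.5 and 2829 FPKM in WT baseline, 3809, 3198 and 4117 in Tet2-/- baseline, 3951, 6115 and 5469.9 in WT IR and 7214, 6714 and 8858 in Tet2-/- IR. The injured libraries were mostly higher, but Fth1 did not pass the test in any comparison of the edgeR fit used here: the log2 fold change with IR was 0.79 ± 0.29 in Tet2-/- (adjusted p = 0.0639) and 0.57 ± 0.27 in WT (adjusted p = 0.265). With library sizes alone it was called with IR in Tet2-/- (1.005, adjusted p = 0.0118), and with DESeq2 its adjusted p was 0.00188 at 0.77, under the fold limit. Over all other fits of this comparison the adjusted p ranged from 0.0245 to 0.410 with no call. After IR the Tet2-/- libraries lay above the WT libraries in FPKM, but the groups overlapped in TMM-scaled counts (log2 difference 0.46 ± 0.34, adjusted p = 0.418).

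Ftl1 (chr7:52713314-52715256, minus strand) rose with IR in Tet2-/-. It was at 641, 1486 and 960.4 FPKM in WT baseline, 1083, 1067 and 1265 in Tet2-/- baseline, 2041, 2988 and 2409 in WT IR and 2498, 3135 and 3756 in Tet2-/- IR. All 6 IR libraries exceeded all 6 baseline libraries. The log2 fold change with IR was 1.21 ± 0.26 in Tet2-/- (adjusted p = 0.00831) and 1.21 ± 0.32 in WT (adjusted p = 0.0927, and 0.0140 with the replicate block), with an interaction of 0.04 (adjusted p = 0.966). Without Tet2-/- IR replicate 3 the fold change in Tet2-/- was 0.99 and so under the fold limit. Between the genotypes after IR the log2 difference was 0.25 ± 0.29 (adjusted p = 0.615). The coding sequence of Ftl1 has 6 other copies in the genome at up to 99.64% identity, that of Fth1 has 1 at 91.05% and that of Mt2 has 1 at 90.86%, so the counts may hold reads of copies or lack reads shared with them.

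Among the genes of iron uptake, Tfrc (chr16:32608982-32632880, plus strand) rose with IR in Tet2-/-, and in WT its call depended on the fit. Its levels were 13.2, 12.01 and 22.0 FPKM in WT baseline, 9.835, 14.4 and 13.9 in Tet2-/- baseline, 30.6, 37.9 and 33.98 in WT IR and 32.1, 32.3 and 28.2 in Tet2-/- IR, so that the IR and baseline libraries did not overlap. The log2 fold change was 1.02 ± 0.17 in Tet2-/- (adjusted p = 0.00321) and 1.05 ± 0.26 in WT (adjusted p = 0.0785, and 0.0218 with the block), and the interaction was 0.01 ± 0.33 (adjusted p = 0.993). The call in Tet2-/- fell under the fold limit without Tet2-/- IR replicate 1 (0.97) or Tet2-/- baseline replicate 1 (0.85), and it was just under it with DESeq2 and with DESeq2 size factors in edgeR (0.998 in both). After IR the genotypes differed by −0.25 ± 0.14 on the log2 scale (adjusted p = 0.288). The part of red blood cells, whose marker levels are given above, in the level of Tfrc was not tested.

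Slc11a2 (chr15:100223089-100253486, minus strand), the endosomal iron transporter, had its highest mean in WT IR. It was at 11.7, 12.7 and 20.1 FPKM in WT baseline, 11.1, 11.6 and 14.2 in Tet2-/- baseline, 21.0, 24.7 and 18.1 in WT IR and 10.9, 13.8 and 14.5 in Tet2-/- IR. All WT IR libraries were above all Tet2-/- IR libraries (log2 difference −0.79 ± 0.16, adjusted p = 0.0297), which passed the test but not the fold limit. This adjusted p stayed under 0.05 only when Tet2-/- IR replicate 3 was left out and ranged from 0.0371 to 0.0900 over the 6 fits with a library left out. The log2 change with IR was 0.45 ± 0.23 in WT (adjusted p = 0.301) and −0.17 ± 0.17 in Tet2-/- (adjusted p = 0.450), and the difference between these effects was −0.57 (adjusted p = 0.243). A transcript with another 3′ end (NM_008732) had a mean of 11.6 ± 5.02 (SD, n = 3), 9.09 ± 1.20, 18.8 ± 2.10 and 13.0 ± 1.46 FPKM in the 4 groups, the same order of the injured groups.

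Transferrin (Trf, chr9:103111206-103132616, minus strand), made mainly by the liver, was low in kidney and varied widely between the IR libraries. It was at 6.68, 7.72 and 5.48 FPKM in WT baseline, 1.65, 3.25 and 2.535 in Tet2-/- baseline, 7.09, 8.64 and 18.6 in WT IR and 21.6, 6.90 and 8.59 in Tet2-/- IR. At baseline all Tet2-/- libraries were below all WT libraries (log2 difference −1.32 ± 0.26, unadjusted p = 0.00126, edgeR adjusted p = 0.206), and DESeq2 called this difference (adjusted p = 0.000381). DESeq2 called 298 of 16086 genes lower at baseline, where edgeR called 0. Leaving out WT baseline replicates 2 and 3 gave the same difference, −1.33, from a single WT library that was assumed to vary like the Tet2-/- libraries (adjusted p = 0.606). With IR, Trf rose in Tet2-/- by 2.07 ± 0.47 on the log2 scale (adjusted p = 0.0106), and by 1.38 without Tet2-/- IR replicate 1, the highest library. In WT the log2 change was 0.76 ± 0.40 (adjusted p = 0.304), the interaction 1.35 (adjusted p = 0.227) and the difference between genotypes after IR −0.02 ± 0.56 (adjusted p = 0.988). The 8 hepatocyte markers summed to 1184 to 1238 FPKM in WT baseline, 878 to 1221 in Tet2-/- baseline, 344 to 561 in WT IR and 67.7 to 376 in Tet2-/- IR, most of it Cyp2e1. Among them Alb stood at 0.203 to 0.919 FPKM in all 12 libraries and Tat at 0 in 10, while Fgb was at 0.017 to 0.711 FPKM at baseline and 3.48 to 134 after IR. Their part in the level of Trf was not tested.

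**Figure D4:**
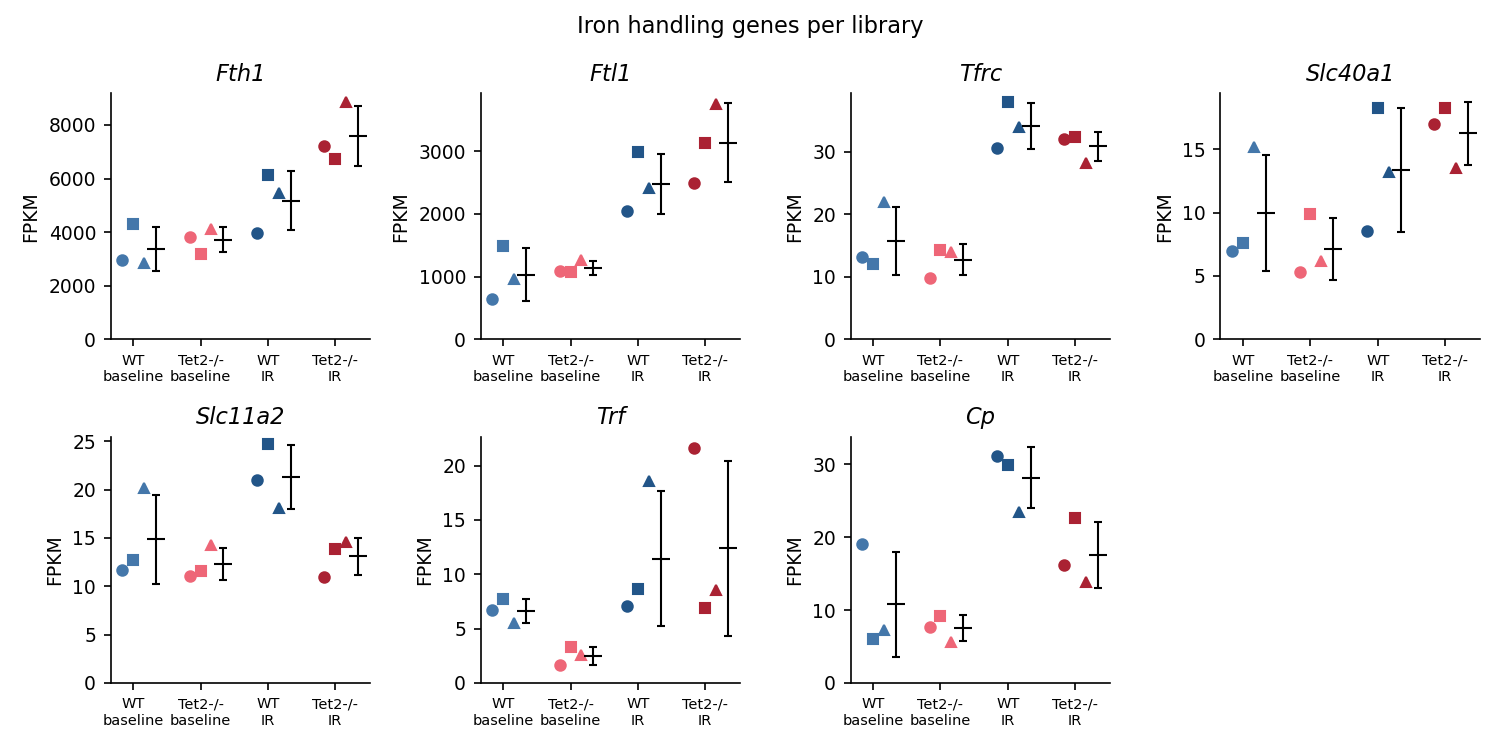
FPKM (vertical axis) of the 7 iron handling genes with counts above the filter in each library by group, with replicate 1 as a circle, 2 as a square and 3 as a triangle and a black dash with a bar for the mean ± SD of 3 libraries. Ftl1 and Tfrc lie higher in all IR libraries than in all baseline libraries, and Slc11a2 is lower in Tet2-/- IR than in WT IR.

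On the export side, Slc40a1 (ferroportin, chr1:45964915-45982439, minus strand) rose with IR in Tet2-/- by less than the fold limit. It was at 7, 7.62 and 15.2 FPKM in WT baseline, 5.34, 9.89 and 6.15 in Tet2-/- baseline, 8.58, 18.3 and 13.2 in WT IR and 17.0, 18.2 and 13.5 in Tet2-/- IR. The groups overlapped in WT and were separate in Tet2-/-, where the log2 fold change was 0.92 ± 0.23 (adjusted p = 0.0150), with 1.23 (called) without Tet2-/- baseline replicate 2 and an adjusted p of 0.0591 without Tet2-/- baseline replicate 3. In WT it was 0.36 ± 0.38 (adjusted p = 0.612), and the interaction was 0.60 (adjusted p = 0.461).

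Cp (ceruloplasmin, chr3:19857054-19892998, plus strand) was highest in WT IR. Its levels were 19.1, 6.07 and 7.23 FPKM in WT baseline, 7.69, 9.23 and 5.615 in Tet2-/- baseline, 31.1, 29.99 and 23.4 in WT IR and 16.2, 22.6 and 13.9 in Tet2-/- IR. WT baseline replicate 1 stood apart from its group, at a level above 2 of the Tet2-/- IR libraries. After IR the Tet2-/- libraries were all below the WT libraries (log2 difference −0.78 ± 0.16, adjusted p = 0.0327), under the fold limit, and the adjusted p stayed under 0.05 only when Tet2-/- IR replicate 2 was left out (0.0412), with values up to 0.103 for the other libraries. The log2 fold change with IR was 0.96 ± 0.21 in Tet2-/- (adjusted p = 0.00834) and 1.31 ± 0.42 in WT (adjusted p = 0.136, and 0.0287 with the replicate block), and the interaction was −0.32 (adjusted p = 0.730). The other transcripts of Cp had the same order of group means, with 20.3 and 20.4 FPKM in WT IR and 12.3 and 12.8 in Tet2-/- IR.

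Hamp (hepcidin, chr7:31727388-31729036, minus strand) was at or near the limit of detection in all groups. It was at 0, 0.013 and 0.041 FPKM in WT baseline, 0, 0.009 and 0 in Tet2-/- baseline, 0, 0.030 and 0 in WT IR and 0.023, 0.020 and 0.150 in Tet2-/- IR. The highest of these values was 5.5 counts, and no difference was detectable at this depth. The related Hamp2 was at 0 in 8 of 12 libraries and at most at 0.526 FPKM.

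The surrounding pathways were read from 8 lists with 133 genes in the matrix, without the 10 genes above, of which 125 were tested in each comparison. At baseline none was called between the genotypes, and 3 were higher and 7 lower in Tet2-/- than in WT after IR. With IR, 2 were higher and none lower in WT (6 and 1 with the replicate block), while 23 were higher and 15 lower in Tet2-/-. In the interaction 11 were called toward a larger rise in Tet2-/- and 17 the other way (19 and 13 with library sizes alone). The shares among all genes are those given above for the same comparisons. The 2 genes called in WT were not called when any 1 WT baseline library was left out. All genes called higher in WT then fell from 234 to 45, 68 and 42, without replicates 1, 2 and 3. After IR the higher genes fell to 1 without WT IR replicate 1 or 3 or Tet2-/- IR replicate 1, and the lower genes to 2 without WT IR replicate 1 or Tet2-/- IR replicate 1. In the same fits all genes called fell from 373 to 65, 87 and 106 higher, and from 623 to 229 and 288 lower.

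Zinc genes moved in both directions. Of 22 tested, 2 were higher in Tet2-/- than in WT after IR and 2 lower, against 2.3% and 3.85% of all genes. Mt3, a metallothionein known from brain, was at 0.998 ± 0.161 FPKM (SD, n = 3) in WT IR and 6.75 ± 3.48 in Tet2-/- IR (log2 difference 2.61 ± 0.47, adjusted p = 0.0221), with 7.64, 9.70 and 2.92 in the Tet2-/- libraries. The zinc importer Slc39a6 was also higher (1.22, adjusted p = 0.0328), and the importers Slc39a8 (−1.89, adjusted p = 0.0159) and Slc39a5 (−1.46, adjusted p = 0.0376) were lower. Slc39a8, which carries zinc and iron, was at 18.4, 11.8 and 9.90 FPKM in WT IR and at 4.44, 4.78 and 2.41 in Tet2-/- IR. Mtf1 was at 3.51 to 3.67 FPKM in WT IR and at 4.11 to 4.45 in Tet2-/- IR, a log2 difference of 0.16 (adjusted p = 0.403). Slc30a1, the zinc exporter and a further target of Mtf1, went the other way from the metallothioneins: it was at 17.2 to 21.0 FPKM in WT IR and 10.2 to 13.8 in Tet2-/- IR (−0.82 ± 0.14, adjusted p = 0.0198, under the fold limit). With IR in Tet2-/- 6 of 22 were higher, among them Slc39a10 (1.40), and 2 lower, Slc39a8 (−2.76) and Slc39a5 (−2.18). Of all genes 12.7% were called higher and 11.6% lower there. In WT Slc39a10, Slc39a8 and Slc39a5 changed by 0.41, −0.73 and 0.03 on the log2 scale, none of them called.

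Of 15 tested genes of iron uptake and trafficking, the largest rise was that of Lcn2, the siderophore-binding lipocalin known as a marker of tubule injury. It was at 2.47, 4.24 and 2.60 FPKM in WT baseline, 2.39, 3.33 and 1.19 in Tet2-/- baseline, 74.2, 476 and 158 in WT IR and 1923, 1849 and 908 in Tet2-/- IR. The log2 fold change with IR was 6.17 (adjusted p = 0.0135) in WT and 9.13 (adjusted p = 8.16e-05) in Tet2-/-. Steap1 (5.32) and Steap2 (2.06) of the Steap family also rose in Tet2-/-, and Slc22a17, the Lcn2 receptor, fell (−1.38). In WT their log2 changes with IR were 2.47, 1.08 and −0.52, none called, and only Slc22a17 of them had a called interaction. Slc39a14, another importer of free iron, was at 11.6 to 12.7 FPKM in WT IR and 15.0 to 22.5 in Tet2-/- IR (0.60, adjusted p = 0.115). The only gene of this list called between the genotypes after IR was Tfr2, another transferrin receptor, which was lower in Tet2-/- (−2.32, adjusted p = 0.0443) but below 1 FPKM in all groups.

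Among the 6 tested genes of iron storage and sensing, Aco1 (iron regulatory protein 1) was lower in Tet2-/- IR, at 58.8, 54.7 and 59.6 FPKM against 119, 97.4 and 89.5 in WT IR (−0.91 ± 0.17, adjusted p = 0.0244, under the fold limit). Ireb2, iron regulatory protein 2, was at 11.04 to 13.2 FPKM in WT IR and 11.7 to 13.2 in Tet2-/- IR (−0.09, adjusted p = 0.728). Ncoa4, which delivers ferritin to the lysosome, had a log2 difference of −0.999 ± 0.604 (adjusted p = 0.318), with Tet2-/- IR replicate 3 at 0.592 FPKM against 3.66 and 4.67 in the other libraries of the group. Hif1a rose with IR in Tet2-/- (1.16, adjusted p = 0.00521). Of 19 tested genes of hepcidin regulation none was called between the genotypes after IR, and Hfe rose with IR both in WT (1.04, adjusted p = 0.0448) and in Tet2-/- (1.85, adjusted p = 0.000564). Stat3 (2.03) and Il6ra (2.55) rose and Atoh8 (−1.89) fell with IR in Tet2-/-. In WT their log2 changes were 1.10, −0.61 and −1.84, none called, and only Il6ra of them had a called interaction.

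Of 21 tested heme genes 3 were called higher and 4 lower with IR in Tet2-/-, shares not far from the 12.7% and 11.6% of all genes. Hmox1, the heme oxygenase that frees iron from heme, was at 11.5 to 14.7 FPKM in WT baseline, 16.1 to 24.2 in Tet2-/- baseline, 28.5, 158 and 70.4 in WT IR and 662, 329 and 197 in Tet2-/- IR. All Tet2-/- IR libraries were above all WT IR libraries, but the spread was wide, and the log2 difference after IR was 2.12 ± 0.66 (adjusted p = 0.0880). With IR it rose in Tet2-/- (4.13 ± 0.46, adjusted p = 0.000586), and in WT the log2 change was 2.65 ± 0.56 (adjusted p = 0.0564). Hp, the hemoglobin-binding haptoglobin, was called with IR in Tet2-/- (8.57), but at 3.70, 6.37 and 249 FPKM its level came mostly from Tet2-/- IR replicate 3, the library with high adipocyte markers. The biliverdin reductase Blvrb rose (1.33) and Mfsd7c fell (−2.21) with IR in Tet2-/-, beside 0.87 and −0.62 in WT, neither called. Uros (−1.44, adjusted p = 0.0175), an enzyme of heme synthesis, and the folate and heme carrier Slc46a1 (−1.33, adjusted p = 0.0146) were lower in Tet2-/- than in WT after IR.

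With IR in Tet2-/-, where 12.7% of all genes were called higher and 11.6% lower, 3 of 10 tested copper genes were lower and none higher. These were the copper-zinc superoxide dismutases Sod3 (−1.60) and Sod1 (−1.45) and Ccs (−1.59), the copper chaperone of Sod1. In WT their log2 changes were 0.11, −0.54 and −0.30. The median of the list in Tet2-/- was −0.85 beside 0.04 over all genes. Sod3 and Ccs were also lower in Tet2-/- than in WT after IR: Sod3 was at 289.8, 237 and 221 FPKM in WT IR and 94.9, 105 and 125 in Tet2-/- IR (−1.29, adjusted p = 0.0163). Heph, the membrane ferroxidase related to Cp, was at 1.09 to 1.39 FPKM in WT IR and 0.775 to 1.91 in Tet2-/- IR. Of 20 tested genes of iron-sulfur cluster assembly 3 were lower, a share near that of all genes, and none higher. These were Fdxr (−1.21, and −0.44 in WT), Nfs1 (−1.14 and −0.29) and Iscu (−1.06 and −0.33), and the list median in Tet2-/- was −0.47. The proximal tubule markers fell in the same comparison (4 of 6 called, median −1.73), and their part in these counts was not tested.

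Of 12 tested genes of lipid peroxide and glutathione metabolism, which include genes that limit and genes that favour peroxidation, 5 rose and 1 fell with IR in Tet2-/-. Over all genes 12.7% were called higher and 11.6% lower in that comparison. Slc7a11, the cystine importer, was at 0.131, 0.258 and 0.157 FPKM in WT IR and at 1.47, 1.545 and 1.04 in Tet2-/- IR, and was called between the genotypes (2.79 ± 0.30, adjusted p = 0.0104). Acsl4 (2.97), a lipid ligase that favours peroxidation, and Chac1 (1.51), which degrades glutathione, rose with IR in Tet2-/-, and the glutathione synthase Gss fell (−1.66). In WT their log2 changes with IR were 1.52, 0.47 and −0.14, none called.

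**Figure D5:**
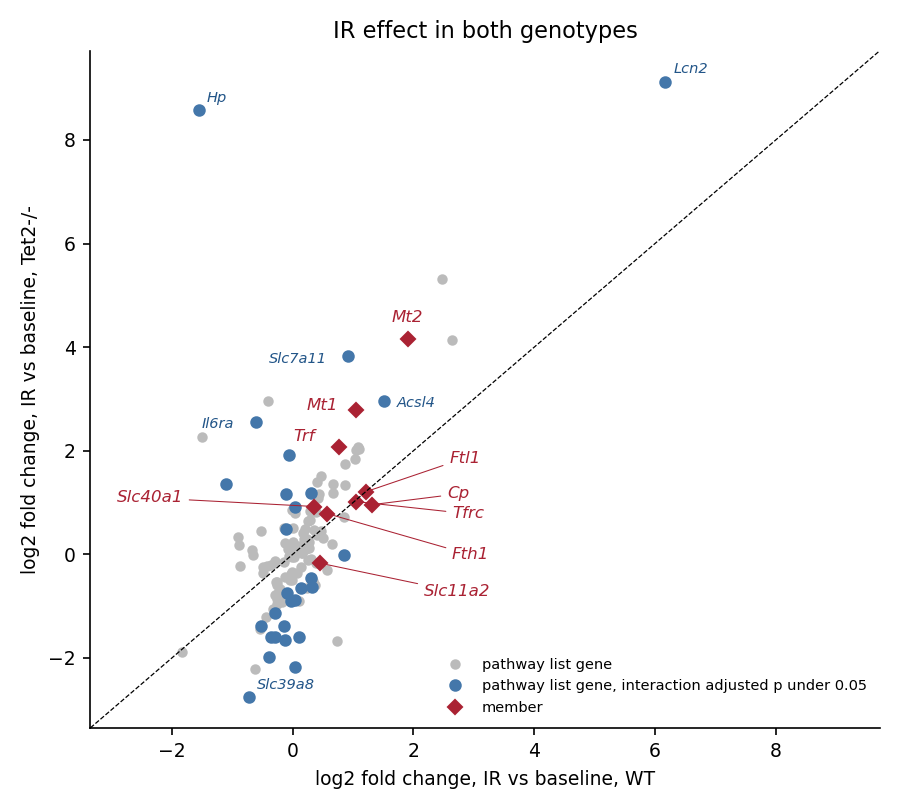
Log2 fold change of IR against baseline in WT (horizontal axis) and Tet2-/- (vertical axis) for the 9 tested genes (red diamonds) and the pathway genes (circles, blue where the interaction had an adjusted p under 0.05), with equal effects on the dashed line. Mt1 and Mt2 lie above the line, Tfrc, Ftl1 and Cp near it, and Slc39a8 below it.

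The genes with the pattern closest to each called member were found by Pearson correlation of log2(FPKM + 0.1) over the 12 libraries among 12213 genes, as a description, since these libraries share their groups. For Mt1 they were Vps37b (r = 0.992), Ripk3 (0.990) and Mt2 (0.988), and for Mt2 they were Txnrd3 (0.990), Vps37b (0.989) and Mt1 (0.988). Ftl1 was closest to Mettl22 (0.974), Gtf2h4 (0.971) and Chmp6 (0.964). Tfrc was closest to Dcun1d4 (0.990), Fancf and Mkln1 (both 0.973), and Trf to Srfbp1 (0.936), Coa7 (0.914) and Galnt18 (0.880). Among the 10 genes, Fth1 and Ftl1 correlated at 0.93, Mt1 and Fth1 at 0.90, and Mt1 and Slc11a2 at −0.10.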

How the data were processed

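Total RNA from kidney was sequenced as 12 libraries. Per the study's methods, the authors aligned reads with STAR to mm9 and counted them over RefSeq transcripts with HOMER, versions not given in the sources used here. The deposited expected counts came in steps of 0.5 (38.7% not whole) and were rounded before testing, and the deposited FPKM values, made by the authors, were used for levels, ratios and likeness. The highest-total transcript stood for each symbol.

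Groups were taken from the labels. Each comparison was fitted on its own 6 libraries with edgeR 4.0.16 (R 4.3.3) by the quasi-likelihood test with TMM scaling, filterByExpr and Benjamini-Hochberg adjustment, and the interaction on all 12. Ratios were tested by a two-sided exact permutation test (scipy 1.17.1). Alternatives were DESeq2 1.42.0, limma 3.58.1 on log2(FPKM + 1) and log2(FPKM + 0.1), other scalings and filters, summed transcripts, a replicate block and each library left out. The scripts were tested on simulated data. TMM factors in Tet2-/- were 1.01 to 1.15 after IR and 0.897 to 0.952 at baseline, so folds in FPKM exceed the fitted folds there.

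Same-numbered libraries were checked for pairing by the correlation of their deviations from group means. IR and baseline libraries of the same number deviated together in WT (0.380, 0.363 and 0.358) and Tet2-/- (0.135, 0.359 and 0.222), so the blocked value stands beside results it changes. The pairing is read from the data and is not stated in the labels. No 2 libraries were duplicates.

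The 10 genes, the pathway and marker lists and the rule for named genes (of each list and comparison, up to 3 called genes per direction with a mean of at least 1 FPKM in either group and no overlap, plus a fixed set of 13 genes) were chosen with earlier results of these data known. The promoter window of 200 bases past the start was chosen after seeing that the annotated Mt1 and Mt2 starts precede the TATAAA box. Copies were searched with BLAST 2.17.0 at 90% identity over 80% of the coding length. Ftl2, one of the genes of that set, was not analysed here. Depth was 51007362 to 107969879 counts per library over 1 transcript per gene, and 81689249 to 172303418 over all rows, where a gene can have several transcripts.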

Additional observations from a re-analysis of the deposited data

Results flagged for a closer look

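The genotype by IR interaction (edgeR, adjusted p under 0.05) was called for Mt1 and Mt2 and for 11 pathway genes higher and 17 lower, against 3.78% and 5.38% of all genes, and the 19 of them that the text names are given here. All values are differences of the log2 fold change with IR, Tet2-/- minus WT. Mt1 (1.78, adjusted p = 0.0311) and Mt2 (2.29, 0.0453) are described above. Among zinc genes the difference was 2.51 for Mt3 (0.0217), 2.03 for Slc39a6 (0.0103), −2.18 for Slc39a5 (0.0328) and −1.99 for Slc39a8 (0.0103). Among genes of iron uptake, sensing and hepcidin regulation it was 2.99 for Lcn2 (0.0463), −0.82 for its receptor Slc22a17 (0.0410), 1.32 for Hif1a (0.0395) and 3.21 for Il6ra (0.0187). Hif1a and Il6ra were lower in each Tet2-/- baseline library than in each WT baseline library (Hif1a at 7.31 to 9.34 against 13.9 to 21.4 FPKM, Il6ra at 0.117 to 0.168 against 0.338 to 0.449), and after IR Hif1a differed by 0.33 (adjusted p = 0.445) and Il6ra by 1.93 (0.0844). In TMM-scaled counts the baseline groups were also apart for Hp (log2 difference −4.19), Acsl4 (−0.64) and Slc39a6 (−0.78), lower in Tet2-/-. Gss (0.51), Sod3 (0.42) and Slc22a17 (0.42) were higher in each Tet2-/- baseline library, and none of these baseline differences was called. After IR, Slc39a6 and Sod3 were called between the genotypes, and Hp, Acsl4, Gss and Slc22a17 were not. Among heme genes the interaction was 10.16 for Hp (0.0217), −1.54 for Uros (0.00541) and −1.19 for Slc46a1 (0.00845). Among copper genes it was −1.68 for Sod3 (0.00380) and −1.25 for Ccs (0.00981). The iron-sulfur gene Nfs1 had −0.81 (0.0327), and the lipid peroxide genes Slc7a11, Acsl4 and Gss had 2.95 (0.00380), 1.49 (0.0449) and −1.49 (0.0131). Hp was at 249 FPKM in Tet2-/- IR replicate 3 and at most at 7.39 in the other 11 libraries. In WT baseline it was at 4.04 and 7.39 in replicates 2 and 3, which carried adipocyte markers, and at 0.546 in replicate 1. Tubule, neutrophil and adipocyte markers moved between the same groups, and their part in these differences was not tested.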

How the results depend on the processing

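With the replicate number as a block, 3 members were called higher with IR in WT in place of 0, and 2, 5 and 2 members were called, as without it, in Tet2-/- against WT after IR, with IR in Tet2-/- and in the interaction. Of pathway genes the replicate block called 6 higher and 1 lower with IR in WT (428 and 559 genes in all). It called 5 higher in Tet2-/- against WT after IR (477 genes in all), and it turned the Ftl1 interaction to −0.015. A block within genotype turned the Ftl1 and Tfrc interactions to −0.047 and −0.025. Between genotypes, same-numbered libraries did not deviate together throughout (correlations −0.186, −0.167 and 0.0709 at baseline, 0.00257, 0.230 and 0.320 after IR), so they share only a number there.

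With DESeq2, 5 members were higher with IR in WT (488 of 16015 genes in all), 4 with IR in Tet2-/- and 1 lower in Tet2-/- at baseline (298 of 16086 genes in all, against 0 in edgeR); of pathway genes 2 were lower at baseline, 9 higher after IR, 7 higher and 2 lower with IR in WT, and 19 and 28 called in the interaction, and the interactions of Ftl1 (−0.0085) and Tfrc (−0.049) turned. DESeq2 size factors in edgeR turned the same interactions, to −0.0085 and −0.049. Over all genes DESeq2 called 775 higher and 879 lower after IR, and 488 and 490 with IR in WT. It called 2094 and 1978 with IR in Tet2-/-, and 1209 and 1599 in the interaction. With no fold limit, 2 members were lower in Tet2-/- after IR, and of pathway genes 6 were higher and 18 lower after IR, 7 higher with IR in WT, and 36 higher and 33 lower with IR in Tet2-/-. Over all genes these pathway counts stood beside 568 and 999, 301, and 3741 and 3313. With all 12 libraries in the fit, 3 members and 5 pathway genes were higher with IR in WT (373 genes in all). In that fit 8 pathway genes were higher in Tet2-/- after IR (714 genes in all), and Trf after IR was 0.0026. With library sizes alone, 8 members were higher with IR in Tet2-/-, 19 pathway genes were called higher in the interaction, Trf after IR was 0.11 and Slc11a2 with IR in Tet2-/- was 0.058. Limma on log2(FPKM + 0.1) called 1 member higher with IR in WT, 6 pathway genes higher after IR, and 18 and 11 in the interaction. Of all genes it called 279, 476, and 1126 and 681. Limma on log2(FPKM + 1) called 4 pathway genes lower after IR, 1 higher with IR in WT, and 17 and 11 in the interaction. Of all genes this fit called 369, 154, and 1069 and 596. On these scales, in the order + 1 and + 0.1, Mt2 at baseline was −0.029 and −0.030, Trf after IR 0.056 and 0.058, and Slc11a2 with IR in Tet2-/- 0.079 and 0.085. Trf after IR was 0.029 with upper quartile scaling, 0.0031 with no filter and 0.014 with a mean FPKM of at least 1. The Tfrc interaction was −0.011 with upper quartile scaling, −0.023 with a mean FPKM of at least 1 and −0.064 with summed transcripts, which put Ftl1 at −0.021.

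Leaving out each library in turn, members called higher ranged from 1 to 2 after IR, from 0 to 1 with IR in WT, from 4 (without Tet2-/- baseline or IR replicate 1) to 7 (without Tet2-/- baseline replicate 2) with IR in Tet2-/- and from 0 to 2 in the interaction. Pathway genes ranged from 1 to 5 higher and 2 to 7 lower after IR, from 0 to 6 higher with IR in WT, and from 3 to 16 and 10 to 20 in the interaction. Over all genes these ranges were 65 to 319 and 229 to 623, 42 to 365, and 147 to 980 and 485 to 1064. The uncalled log2 differences at baseline changed sign, with ranges of −0.10 to 0.44 for Mt1, −0.40 to 0.46 for Mt2, −0.016 to 0.60 for Ftl1, −0.38 to 0.11 for Tfrc, −0.70 to 0.061 for Slc40a1, −0.33 to 0.11 for Slc11a2 and −0.72 to 0.26 for Cp. So did Slc40a1 (−0.071 to 0.40) and Trf (−0.69 to 0.62) after IR and the interactions of Fth1 (−0.0086 to 0.36), Ftl1 (−0.38 to 0.28) and Tfrc (−0.34 to 0.12). The log2 Fth1 to Ftl1 ratio at baseline ranged from −0.18 to 0.15. Without WT baseline replicates 2 and 3, an alternative chosen after seeing the data that leaves 1 WT baseline library, assumed to vary like the other groups, 0 members and 0 pathway genes were called in the interaction and 0 pathway genes higher with IR in WT, where only 2 and 8 of 17237 genes and 0 and 1 of 16526 were called in all, so these counts say little. The baseline differences were then −0.19 for Mt1, −0.44 for Mt2, 0.050 for Tfrc, 0.13 for Slc40a1 and 0.18 for Slc11a2, and the interactions −0.69 for Ftl1, −0.30 for Tfrc and 0.46 for Cp. The cause was not tested for any of these changes. Of 440 counts and ratios compared, 361 stayed within 1.5 times the main count or, for ratios, kept their direction, 78 counts moved further and 1 ratio turned. Of 1684 values of single genes, 1493 kept their direction and their side of the threshold. Depth limited Hamp, at no more than 5.5 counts in any library.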
